A study of Rattus norvegicus with 17 samples.

Results

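Prostaglandins and leukotrienes are short-lived lipid signals made from arachidonic acid, and 10 genes of their synthesis and breakdown were followed here in rat liver after bile duct ligation, with and without ghrelin. The members were the probe sets of the array annotated to exactly 1 of these 10 symbols: 13 probe sets of 31042 on the array outside its controls, and 10 genes of 14217 with a symbol of their own. Phospholipase A2 frees arachidonic acid from membranes. Cyclooxygenases turn it into prostaglandin H2, from which terminal synthases make prostaglandins D2 and E2 and prostacyclin, while 5-lipoxygenase and its partner protein open the branch to leukotrienes. In liver, Kupffer cells are a known source of prostaglandins, and hepatocytes clear leukotrienes from blood into bile.

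RNA of 17 livers was measured, with 1 Affymetrix Rat Genome 230 2.0 array per rat. The 5 ligated ghrelin rats underwent bile duct ligation and were given recombinant ghrelin, a stomach hormone, at 10 µg/kg/day. The 6 ligated saline rats had the same ligation with saline, and the 6 sham rats had an abdominal incision with saline. Ghrelin or saline was delivered to each rat by a subcutaneous pump. The labels state that ghrelin was infused throughout the 2 weeks of ligation. Surgery fell in week 7, and livers date from week 9. The labels used here give neither strain nor sex, and they do not say whether the weeks are ages. No sham rat among these groups received ghrelin, so ghrelin was compared in ligated rats only. Levels are log2 of the deposited probe set intensity, which the authors made with GCRMA. A level of 3.95, the log2 of the median of all deposited values, is used as a lower limit, below which the size of a value is not read. Levels of different genes are not set against each other, because probe sets differ in brightness. Changes are log2 changes ± SE from limma, and a change was called when its Benjamini-Hochberg adjusted p over all 15965 kept probe sets was under 0.05. Rats are numbered within a group in order of deposit.

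Of the 10 genes, 8 had a probe set kept for testing, meaning that it was above 3.95 on at least 5 arrays. The microsomal prostaglandin E synthase gene Ptges and the 5-lipoxygenase gene Alox5 lay below that level on all 17 arrays. Ptgs2 was kept through the 6 ligated saline arrays and 2 ligated ghrelin arrays, Ptgds through the 11 ligated arrays, and Ltc4s through 5 sham arrays, so these genes could hardly have been kept without differing between groups. The RNA read as liver RNA, as labelled, with the albumin gene Alb at a mean of 15.85 in ligated ghrelin, 15.84 in ligated saline and 15.88 in sham livers. Median array intensity lay between 15.4 and 16.4 in ligated ghrelin, between 16.1 and 17.6 in ligated saline and between 14.2 and 14.7 in sham rats. Of the probe sets called between ligated saline and sham rats, 55.7% were higher on the deposited scale, 42.0% after quantile normalization, 39.0% with array medians set equal and 27.1% without a filter. For ligated ghrelin against ligated saline the share was 59.2%, and 80.4% with array medians set equal.

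Promoters are printed for 4 members whose results are described next: Ptgs2, the gene called for ghrelin, Pla2g4a, its neighbour on the chromosome, which was higher after ligation too, Ptgds, measured above the limit in ligated rats alone, and Ltc4s, the member that fell. In the rat annotation, 0 protein-coding genes lie between Pla2g4a and Ptgs2. The sequences run from 250 bases before to 50 bases after the start of transcription, 5′ to 3′ on the gene's strand, and come from RefSeq (build GRCr8), which gave a promoter for 8 of the 10 members. Capitals mark matches on either strand to the letters searched: TATAAA (a core promoter box), TTNNGNAA (C/EBP site), the kappa B site (GGG and CC with 5 free letters between), TGANTCA (AP-1 site), TGACGTCA (cAMP response element), CACGTG (E-box) and GGGCGG (GC box). The Ltc4s window lies inside the annotated span of the gene.
Ptgs2, chr13:64713813-64714112, + strand: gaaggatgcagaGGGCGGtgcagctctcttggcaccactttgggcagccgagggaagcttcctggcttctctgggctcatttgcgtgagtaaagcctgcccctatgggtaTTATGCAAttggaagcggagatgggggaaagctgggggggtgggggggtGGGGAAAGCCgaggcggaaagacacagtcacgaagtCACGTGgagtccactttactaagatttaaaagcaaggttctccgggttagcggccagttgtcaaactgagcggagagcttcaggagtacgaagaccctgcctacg
Pla2g4a, chr13:64572303-64572602, - strand: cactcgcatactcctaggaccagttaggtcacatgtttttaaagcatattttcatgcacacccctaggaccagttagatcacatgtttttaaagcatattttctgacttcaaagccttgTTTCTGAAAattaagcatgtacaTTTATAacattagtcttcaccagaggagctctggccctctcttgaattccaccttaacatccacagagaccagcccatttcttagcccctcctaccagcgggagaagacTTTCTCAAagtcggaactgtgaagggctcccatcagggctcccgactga
Ptgds, chr3:28682929-28683228, - strand: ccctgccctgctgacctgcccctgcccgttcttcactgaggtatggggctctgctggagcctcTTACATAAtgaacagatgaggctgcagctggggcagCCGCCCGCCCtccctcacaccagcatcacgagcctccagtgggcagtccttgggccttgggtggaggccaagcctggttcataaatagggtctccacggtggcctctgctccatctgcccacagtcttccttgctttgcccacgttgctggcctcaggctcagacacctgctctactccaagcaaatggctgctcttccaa
Ltc4s, chr10:35063545-35063844, - strand: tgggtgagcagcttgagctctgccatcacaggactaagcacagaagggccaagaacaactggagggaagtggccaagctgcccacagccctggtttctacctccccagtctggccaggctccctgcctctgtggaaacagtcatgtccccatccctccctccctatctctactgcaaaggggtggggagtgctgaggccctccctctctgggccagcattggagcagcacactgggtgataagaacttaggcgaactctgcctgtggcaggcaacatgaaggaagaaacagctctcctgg

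The Ptgs2 window held a C/EBP match from -140 to -133, a kappa B match from -91 to -82 and the E-box from -55 to -50, counted from the start of transcription. The C/EBP letters were found in 4 of 8 member promoters (Pla2g4a, Ptgds, Ptges and Ptgs2) and in 41.3% of all 33469 promoters of the same length, and the kappa B letters in 4 of 8 (Alox5, Ptges, Ptgs1 and Ptgs2) and in 47.3%. CACGTG was found in 2 of 8 (Hpgd and Ptgs2) and in 6.42% of all, and GGGCGG in 5 of 8 and in 33.1%. TATAAA occurred in 1 of 8 (Pla2g4a) and in 14.2% of all promoters. The AP-1 and cAMP response element letters were in 0 of 8 windows, against 7.33% and 1.83% of all promoters. The letters of the Ltc4s window matched none of the 7 motifs. A match describes the sequence and was not tested as a binding site.

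Ligated saline and sham rats both had surgery and saline, and their comparison addressed the effect of ligation on the 10 genes. Both cyclooxygenases, the arachidonate-releasing phospholipase, a prostaglandin D synthase and the 5-lipoxygenase-activating protein rose, and leukotriene C4 synthase fell. Of the 8 tested genes, 5 were higher and 1 lower. Over all 9736 tested genes, 64.7% were called in this comparison, 37.5% higher and 27.2% lower, so 6 calls of 8 are close to the background. Over all kept probe sets, 61.5% were called, 34.2% higher and 27.3% lower. The groups did not overlap for 6 of the 8, against 44.5% of all tested genes. The median change of the 8 was 0.98, against 0.07 over all tested genes. These figures include Ptgs2, Ptgds and Ltc4s, which could hardly have been kept without differing between groups. They are therefore not read as an excess over the background. In whole liver RNA, a change in the number of cells of a type and a change in RNA per cell cannot be told apart.

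**Figure D1:**
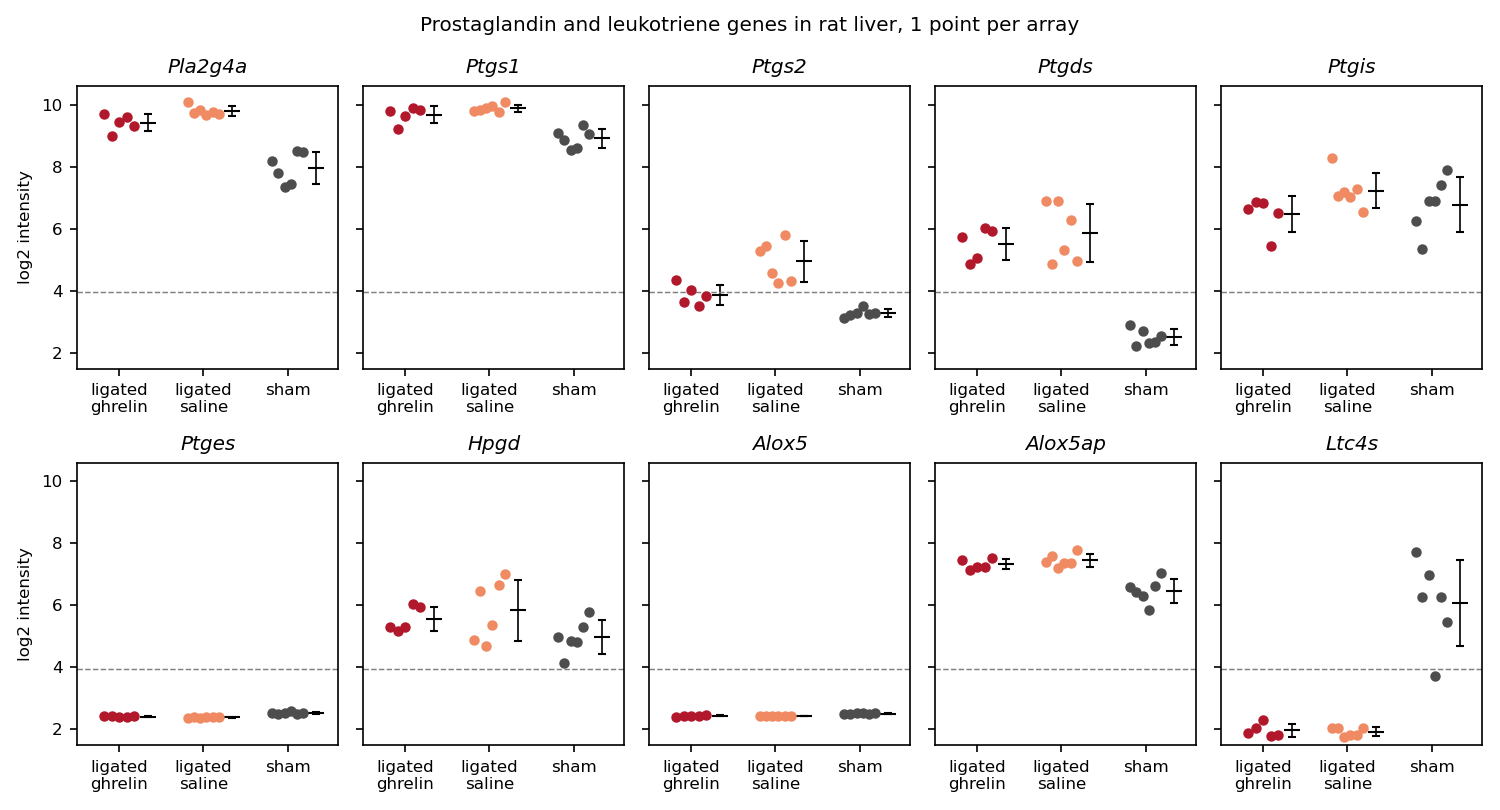
Log2 intensity of each of the 10 genes on each array, by its brightest probe set. Points are rats, the bar beside them is mean ± SD, and the dashed line is the level of 3.95 under which values are not read. Ltc4s lies above the line in 5 of 6 sham rats and in 0 of 11 ligated rats, and Ptgds in all 11 ligated rats and 0 of 6 sham rats.

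Pla2g4a encodes cytosolic phospholipase A2, which cuts arachidonic acid from membrane phospholipids. Its levels were 10.10, 9.74, 9.82, 9.68, 9.77 and 9.71 in ligated saline rats, against 8.19, 7.79, 7.35, 7.44, 8.51 and 8.48 in sham rats. Every ligated saline rat was above every sham rat, and the sham rats were spread more widely (SD 0.51, against 0.15 in ligated saline rats). The change was 1.84 ± 0.192 by limma (adjusted p = 4.87e-07, n = 6 and 6), or 3.58-fold (95% interval 2.70 to 4.74).

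Ptgs1 encodes cyclooxygenase 1, the form that many cells make constantly. Its brighter probe set read 9.80, 9.84, 9.88, 9.96, 9.77 and 10.08 in ligated saline rats, against 9.08, 8.86, 8.53, 8.60, 9.35 and 9.06 in sham rats. The groups did not overlap, and the change was 0.97 ± 0.140 (limma adjusted p = 1.49e-05), close to a doubling at 1.96-fold (1.60 to 2.41). The dimmer probe set was also higher, by 0.93 ± 0.325 (limma adjusted p = 0.0198), but its groups overlapped. Its ligated saline rats lay between 4.21 and 5.89 and its sham rats between 3.57 and 5.23.

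Ptgs2 encodes cyclooxygenase 2, the form that cytokines and other stimuli induce. It read 5.28, 5.46, 4.56, 4.27, 5.81 and 4.32 in ligated saline rats, against 3.12, 3.22, 3.28, 3.50, 3.25 and 3.29 in sham rats. All 6 sham arrays were below 3.95 and all 6 ligated saline arrays above it, with rats 1, 2 and 5 higher than rats 3, 4 and 6. The fitted change was 1.68 ± 0.234 (limma adjusted p = 1.15e-05), which against the limit of 3.95 is a rise of at least 2.00-fold.

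The terminal synthases gave different results. Ptgds, the lipocalin-type prostaglandin D synthase, read 6.90, 4.85, 6.89, 5.33, 6.29 and 4.97 in ligated saline rats, against 2.91, 2.22, 2.72, 2.31, 2.35 and 2.55 in sham rats. All sham arrays were under the limit, and the ligated saline rats spread over a 4.11-fold range, with rats 1, 3 and 5 high. The fitted change was 3.36 ± 0.347 (limma adjusted p = 4.45e-07), and against the limit the rise was at least 3.78-fold.

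Ptgis, the prostacyclin synthase of vessel walls, was not called. It read 8.28, 7.05, 7.19, 7.01, 7.29 and 6.55 in ligated saline rats, against 6.25, 5.34, 6.89, 6.89, 7.43 and 7.89 in sham rats. Only ligated saline rat 1 was above every sham rat, and the change of 0.45 ± 0.379 (limma adjusted p = 0.317) had a 95% interval of -0.36 to 1.25. Ptges, which makes prostaglandin E2 downstream of cyclooxygenase 2, had both its probe sets at or below 2.61 on every array, so no change was read for it.

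Hpgd encodes 15-hydroxyprostaglandin dehydrogenase, which begins the breakdown of prostaglandins. Its brighter probe set read 4.88, 6.45, 4.70, 5.37, 6.65 and 7.00 in ligated saline rats, against 4.98, 4.15, 4.84, 4.81, 5.32 and 5.80 in sham rats. Ligated rats 2, 5 and 6 were above every sham rat and rats 1, 3 and 4 were within the sham range. Its change was 0.86 ± 0.378 and missed the threshold (limma adjusted p = 0.0588). The other probe set placed the same 3 rats, at 5.95, 6.27 and 5.84, above all sham rats, whose highest value was 4.93, and its change of 1.06 ± 0.373 was called (limma adjusted p = 0.0208). The call for the brighter probe set appeared without sham rat 6 (adjusted p = 0.0320), ligated saline rat 1 (0.0254) or ligated saline rat 3 (0.0171).

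**Figure D2:**
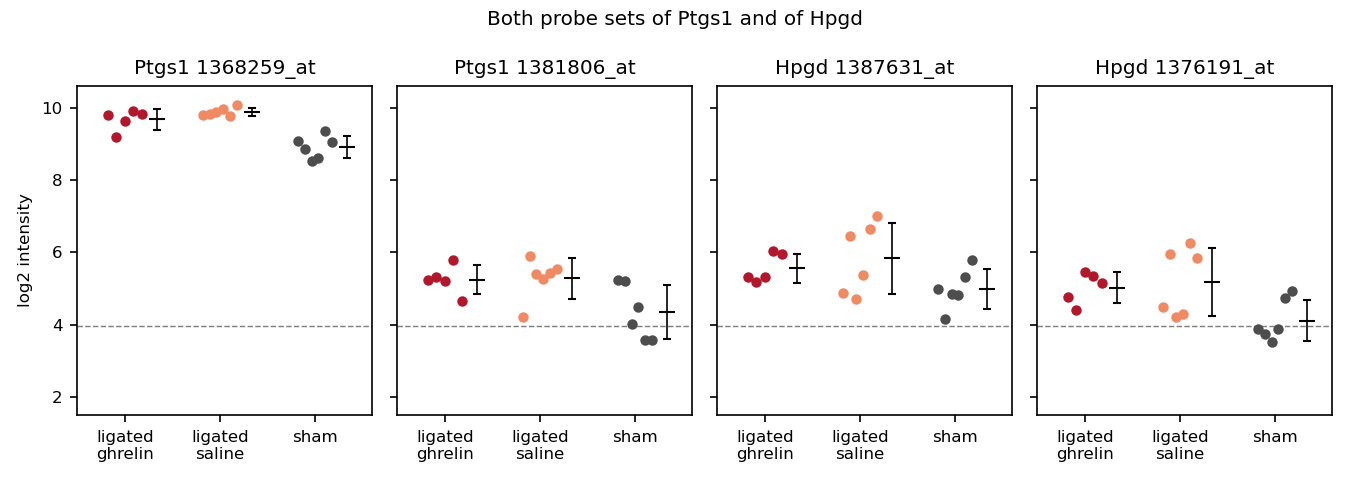
Log2 intensity of both probe sets of Ptgs1 and of Hpgd on each array, with points in the order of the rats' numbers, mean ± SD, and the limit of 3.95 as a dashed line. Both Hpgd probe sets set ligated saline rats 2, 5 and 6 apart from rats 1, 3 and 4.

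On the leukotriene side the members went in opposite directions. Alox5ap encodes the 5-lipoxygenase-activating protein, which presents arachidonic acid to 5-lipoxygenase. It read 7.38, 7.60, 7.21, 7.36, 7.35 and 7.77 in ligated saline rats, against 6.59, 6.41, 6.29, 5.85, 6.63 and 7.03 in sham rats. The groups did not overlap and the change was 0.98 ± 0.154 (limma adjusted p = 3.74e-05), or 1.97-fold (1.57 to 2.47). The enzyme it serves, Alox5, was at or below 2.53 on all arrays and no change was read.

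Ltc4s encodes leukotriene C4 synthase, which joins leukotriene A4 to glutathione to form the first of the cysteinyl leukotrienes. It read 2.05, 2.05, 1.76, 1.81, 1.81 and 2.05 in ligated saline rats, against 7.72, 6.26, 6.97, 3.72, 6.28 and 5.45 in sham rats. Every ligated rat was below the limit, whereas sham rats spread from 3.72 to 7.72, with rat 4 just under the limit itself. The fitted change was -4.14 ± 0.447 (limma adjusted p = 7.01e-07), and ligated saline rats were at least 4.34-fold lower. Ltc4s was the only one of the 8 tested members called lower.

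Markers of several cell types, though not of all, also differed between ligated saline and sham rats. Their counts are read beside the 64.7% of all tested genes called, 37.5% higher and 27.2% lower. All 8 macrophage markers on the array rose, and their summed intensity was 20807 to 25947 in ligated saline rats, against 7801 to 14590 in sham rats. All 6 cholangiocyte markers rose, with sums of 4838 to 14318 against 342 to 685. For stellate cells and myofibroblasts, 6 of 7 markers were higher and 1 lower (sums 2511 to 5070 against 1270.5 to 1508.5). Of 5 endothelial markers 3 rose and 1 fell, and their sums overlapped (2194 to 2937 against 2359 to 3121). Of 6 neutrophil markers 4 were kept and all 4 rose (sums 8863 to 35591 against 245 to 1750). Among 9 mast cell markers, 2 were kept and 0 were called by limma, with 0 at an unadjusted p under 0.05, and 4 of the 9 lay below 3.95 on all arrays (sums 92.8 to 247 against 89.5 to 114). The group means of the defining markers Cpa3, Ms4a2 and Fcer1a were under 3.95 in ligated saline and in sham rats. Of 4 platelet markers 1 rose and 1 fell, and of 6 lymphocyte markers 1 rose and 1 fell. Of 5 hepatocyte markers 2 fell and 0 rose. The part of any cell type in the members' changes was not tested.

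The comparison of ligated ghrelin with ligated saline rats asked how ligated rats differed when ghrelin was infused throughout the ligation. Ptgs2 was lower with ghrelin, and no other member was called. This 1 call in 8 tested genes stands beside 2.34% of all tested genes called in either direction, 1.76% higher and 0.585% lower. Ptgs2 was kept mainly through the ligated saline arrays, the group where it was high, so the count is not read as an excess. Over all kept probe sets, 2.22% were called, 1.32% higher and 0.908% lower. That background is unsteady, with 355 probe sets called over all arrays and 35 to 653 when 1 array was left out. Groups without overlap were found for 0 of the 8 and for 4.53% of all tested genes. The median change of the 8 was -0.32, against 0.01 over all tested genes, and 7 of the 8 estimates were negative. The share of negative estimates over all tested genes is not given here. The 8 also include Ltc4s, under the limit in both groups. The median and the 7 are therefore not read as a fall of the members as a set.

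Ptgs2 read 4.35, 3.64, 4.02, 3.53 and 3.85 in ligated ghrelin rats, against 5.28, 5.46, 4.56, 4.27, 5.81 and 4.32 in ligated saline rats. Of the 5 ghrelin rats, 4 were below every ligated saline rat, and rat 1 was above ligated saline rats 4 and 6. Only ghrelin rats 1 and 3 were above the limit of 3.95. The change was -1.07 ± 0.246 (limma adjusted p = 0.0389, n = 5 and 6), a ratio of 0.475 (95% interval 0.331 to 0.681), and an exact two-sided permutation test on this gene alone gave p = 0.0130. The call was lost without ligated saline rat 1, 2, 3 or 5, or without ligated ghrelin rat 2, 3 or 5, with adjusted p between 0.0521 and 0.110 and changes between -1.15 and -0.90. With values under 3.95 set to that limit, the change was -0.91 (limma adjusted p = 0.0460). The SE and interval rest on a spread shared with the sham rats, all under the limit. Their SD was 0.13, against 0.65 in ligated saline and 0.32 in ligated ghrelin rats. With the 2 groups fitted alone the SE was 0.291 and the change was not called (limma adjusted p = 0.0880).

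For the other members the data allowed a range of effects. Pla2g4a read 9.71, 9.00, 9.43, 9.61 and 9.32 in ligated ghrelin rats, and 4 of these 5 were below the lowest ligated saline rat, at 9.68. Its change was -0.38 ± 0.201 (limma adjusted p = 0.281, 95% interval -0.81 to 0.04). Without adjustment, limma gave p = 0.0731 and the exact permutation test on this gene alone p = 0.00649. The permutation p values are not adjusted for the number of genes. Ptgis read 6.65, 6.88, 6.83, 5.46 and 6.52 in ligated ghrelin rats, with rat 4 the lowest. Its change relative to ligated saline rats was -0.76 ± 0.398 (limma adjusted p = 0.280, limma unadjusted p = 0.0725, exact permutation p = 0.0260).

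Ptgs1 read 9.80, 9.20, 9.64, 9.90 and 9.83 in ligated ghrelin rats, and its interval ran from -0.52 to 0.10. Ptgds read 5.72, 4.85, 5.04, 6.01 and 5.92, with an interval of -1.13 to 0.41. Alox5ap read 7.46, 7.15, 7.24, 7.24 and 7.52, with an interval of -0.46 to 0.22. Hpgd read 5.32, 5.18, 5.32, 6.03 and 5.95 by its brighter probe set, with an interval of -1.12 to 0.55. The exact permutation p was 0.0931 for Ptgs1, 0.450 for Ptgds, 0.299 for Alox5ap and 0.537 for Hpgd, by the brighter probe set where a gene has more than 1. Ltc4s read 1.89, 2.05, 2.32, 1.79 and 1.82, all under the limit as in ligated saline rats, so a difference between these groups could not be measured.

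**Figure D3:**
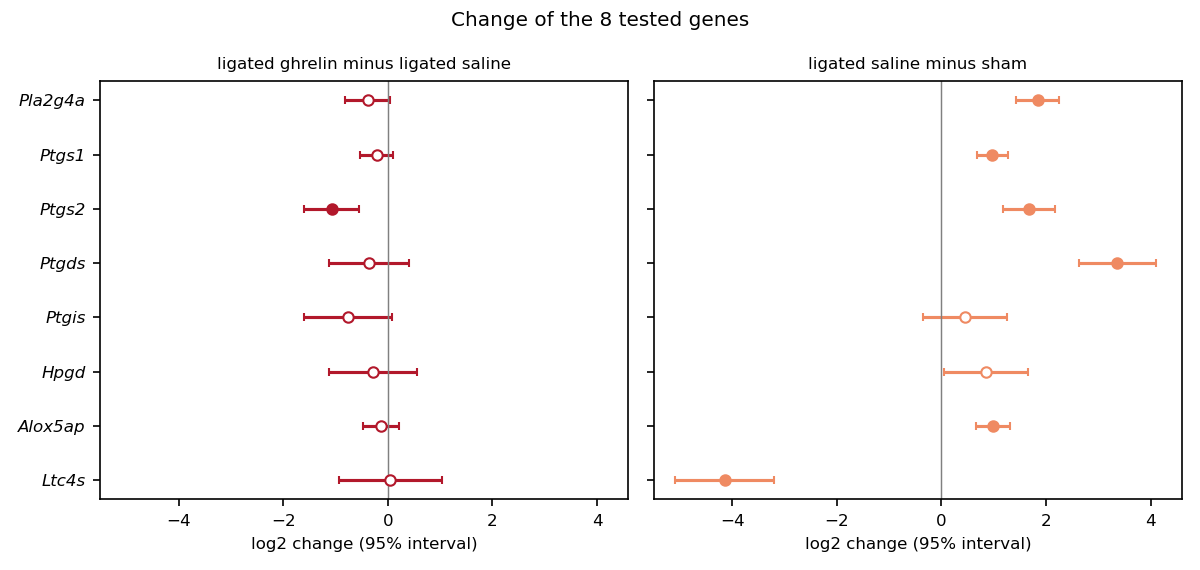
Log2 change of the 8 tested genes in ligated ghrelin against ligated saline rats (left) and in ligated saline against sham rats (right), with 95% intervals from limma. Filled points passed an adjusted p of 0.05. On the left only Ptgs2 is filled. The points of Ltc4s, Ptgds and Ptgs2 on the right are fitted values against a group under the limit, so their sizes are not compared.

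Few cell type markers were called between these groups. Positive estimates were 0 of 7 for stellate cell and myofibroblast markers, 1 of 8 for macrophage, 2 of 6 for cholangiocyte and 1 of 3 for lymphocyte markers. They were 3 of 5 for hepatocyte, 3 of 5 for endothelial, 4 of 4 for neutrophil, 2 of 2 for mast cell and 2 of 2 for platelet markers. Of 7 stellate cell and myofibroblast markers 1, the pericyte gene Rgs5, was lower with ghrelin (-0.70 ± 0.158, limma adjusted p = 0.0389), 5 of the 7 had an unadjusted p under 0.05, and their summed intensity was 2237 to 2731 in ligated ghrelin rats, against 2511 to 5070 in ligated saline rats. Macrophage markers had 0 of 8 called by limma, with 1 of 8 at an unadjusted p under 0.05, and sums of 15365 to 23307 against 20807 to 25947. The share of all tested genes at that unadjusted p is not given here, so these marker counts are not read as an excess. The 3′ minus 5′ difference of the GAPDH controls, which widens as RNA degrades, differed by 0.15 between ligated ghrelin and ligated saline rats (exact two-sided permutation p = 0.0541), and ghrelin rat 3 had the highest value, 0.62. The part of cell types and of RNA quality in the Ptgs2 difference was not tested.

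Against sham rats, ligated ghrelin rats showed both treatments together, with arrays shared with the other comparisons. Of the 8 tested genes 5 were higher and 1 lower, where 56.2% of all tested genes were called, 35% higher and 21.2% lower. Over all kept probe sets, 53.5% were called, 29.9% higher and 23.5% lower. The groups did not overlap for 5 of the 8, against 39% of all tested genes. Of the 5, 1 is Ptgs2, whose lowest ligated ghrelin value (3.53) and highest sham value (3.50) are both under the limit. Ptgds and Ltc4s, also among the 5, could hardly have been kept without differing between groups, so the count is not read as an excess. Pla2g4a was higher by 1.46 ± 0.201 (limma adjusted p = 1.57e-05), Ptgs1 by 0.76 ± 0.147 and Alox5ap by 0.86 ± 0.161. Ptgds averaged 5.51 in ligated ghrelin and 2.51 in sham rats, a rise of at least 2.95-fold. Ltc4s was at least 4.34-fold lower, with a fitted change of -4.09 ± 0.469. Ptgs2 was at 0.60 ± 0.246 (limma adjusted p = 0.0487). That call is slight, since the means of both groups (3.88 and 3.27) lay under the limit, and it was lost in 12 of 19 alternatives, by leaving out ligated ghrelin rat 1, 3 or 5 or sham rat 1, 2, 3, 5 or 6 among others (adjusted p up to 0.131 in these, and 0.755 with values under 3.95 set to that limit). Ptgs2 had its highest mean level in ligated saline rats, and the order of ligated ghrelin and sham rats was not measured. For Pla2g4a, Ptgs1, Ptgds and Alox5ap the sham rats were lowest, and the ligated groups did not differ beyond the threshold.

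The wider pathway was read from 57 further entries, of which 49 had a probe set and 29 were kept. In ligated saline against sham rats, 13 of the 29 rose and 10 fell, where 37.5% of all tested genes were higher and 27.2% lower. The median change was 0.28, beside 0.07 over all tested genes, and the counts by role are to be read against the same shares. Ggt1, Ptgfr and Alox15, all called, were kept mostly through the groups where they were higher. The counts of this list and of its roles are therefore not read as an excess. The members of each role moved unevenly. Among enzymes and regulators of arachidonate release, 4 of 8 rose and 2 fell. Anxa1, an inhibitor of phospholipase A2, rose by 3.99 ± 0.358 (limma adjusted p = 9.64e-08), the secreted phospholipases Pla2g2d by 2.34 ± 0.570 and Pla2g12a by 1.08 ± 0.187, while Mgll, a lipase that frees arachidonic acid from an endocannabinoid, changed by -1.33 ± 0.129. Among terminal prostanoid synthases 4 of 6 rose and 1 fell. Thromboxane synthase (Tbxas1) rose by 2.00 ± 0.188 (limma adjusted p = 1.57e-07) and the carbonyl reductase Cbr1, which can turn prostaglandin E2 into F2 alpha, by 1.35 ± 0.185.

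Of 4 kept genes that move or inactivate prostaglandins, 0 were called higher and 2 fell: the prostaglandin uptake transporter Slco2a1, at 10.92 in ligated saline and 12.31 in sham rats (-1.40 ± 0.188, limma adjusted p = 7.70e-06), and the reductase Ptgr2, which acts after Hpgd (-0.59 ± 0.0667). Of 8 prostanoid receptor and partner genes on the array 3 were kept, and 1 was called higher and 2 lower in ligated saline rats. The prostaglandin F2 alpha receptor Ptgfr, named here after its values were seen, was 1 of the 2 called lower. It averaged 3.71 in ligated saline rats, under the limit, and 4.26 in sham rats. Only 1 of its 6 ligated saline arrays and 4 of its 6 sham arrays were above the limit, so the size of this change is not read. The prostaglandin E2 receptor Ptger3 changed by -1.93 ± 0.305 (limma adjusted p = 3.86e-05), and Ptgfrn, a partner protein of the prostaglandin F2 alpha receptor, rose by 1.74 ± 0.166.

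On the leukotriene side 4 of 6 kept enzymes and partners rose and 2 fell. Lta4h, which makes leukotriene B4 and so competes with Ltc4s for leukotriene A4, rose by 1.42 ± 0.0932 (limma adjusted p = 3.32e-09). Ggt1, which converts leukotriene C4 to D4, rose, but 5 of its 6 sham arrays were under the limit. Its fitted change was 4.24 ± 0.383, and 3.38 with values under the limit set to it. The lipoxygenase-binding protein Cotl1 rose by 2.20 ± 0.226. The genes of leukotriene receptors on the array (Cysltr1, Cysltr2, Ltb4r and Ltb4r2) were below 3.95 on all 17 arrays. Alox15, another lipoxygenase, had a fitted change of -0.94 ± 0.323 (limma adjusted p = 0.0181). Only 1 of its 6 ligated saline arrays and 4 of its 6 sham arrays were above the limit. Its mean in ligated saline rats (3.61) was under the limit, so the size of this change is not read.

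**Figure D4:**
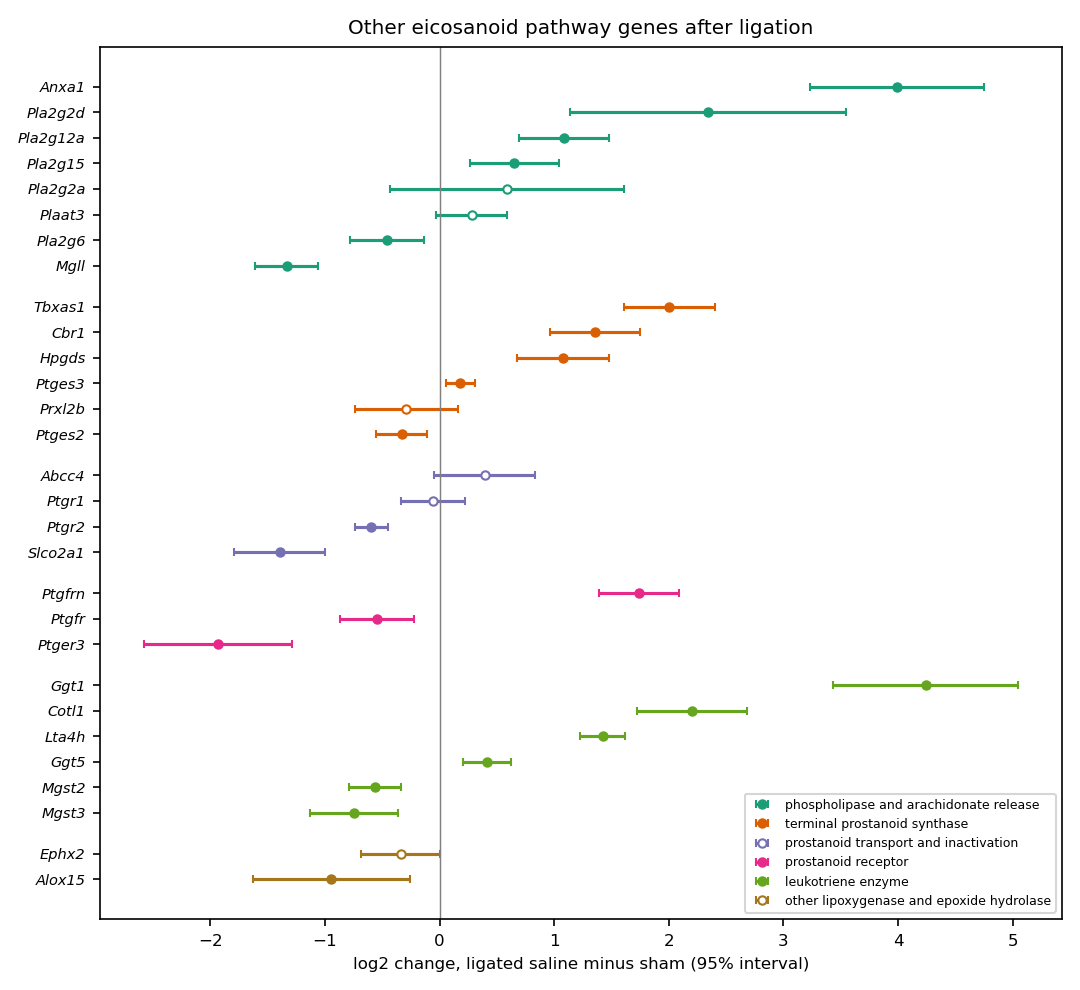
Log2 change in ligated saline against sham rats of the 29 kept genes of the wider pathway, grouped by role, with 95% intervals from limma. Filled points passed an adjusted p of 0.05. Lta4h, Ggt1 and Cotl1 lie to the right, and Slco2a1, Ptger3 and Mgll to the left.

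With ghrelin, 0 of these 29 genes were called by limma against ligated saline rats, and 8 had an unadjusted p under 0.05. These 8 were singled out after their values were seen. The share of all tested genes at that unadjusted p is not given here, so the 8 are not read as an excess. The lowest adjusted p was that of Slco2a1, at 11.58 in ligated ghrelin and 10.92 in ligated saline rats (0.66 ± 0.197, limma adjusted p = 0.0759), and it was called without ligated ghrelin rat 4 (0.82, adjusted p = 0.0318). Its second probe set had a change of 0.44 ± 0.205 (adjusted p = 0.233). Tbxas1 was lower in all 5 ghrelin rats than in any ligated saline rat, at -0.47 ± 0.197 (limma adjusted p = 0.181). It was the 1 gene of the 29 without overlap, where 4.53% of all tested genes had none. The others were Mgst2, Ptgr1, Mgll, Ptges2, Pla2g6 and Prxl2b, with changes between 0.28 and 0.48.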

How the data were processed

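The deposited table holds 1 intensity value per probe set and rat on the linear scale, which the authors made with GCRMA, per the submitters' processing notes. Its version and settings are not stated there. GCRMA normalizes between arrays and pulls dim probe sets towards a floor, so low values carry little size information. Values were converted to log2 without a pseudocount. Of 31099 probe sets, 57 controls were left out. A probe set was kept when above 15.5 (3.95 on the log2 scale, the median of all deposited values) on at least 5 arrays, which kept 15965. Each gene stands for its brightest kept probe set, out of 20826 probe sets with a single symbol in the platform annotation. Limma 3.58.1 in R 4.3.3 fitted 3 group means over all 17 arrays without covariates, and p values were adjusted over all kept probe sets. Where a whole group lay under the limit, the fold is a bound against it. The fit was tested on simulated data. The labels used here name no batch, and the number of arrays limits the precision.

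Genes named were all 10 members, the called genes of the wider list (at most the 12 largest changes and the lowest p of each role), and the defining cell type markers. The members and lists were chosen with earlier results of these data known. The alternatives were 2 other scalings, no filter and a stricter filter (2 times the level), another variance model, array weights, 2 groups only, another probe set and leaving out each array, and, chosen after seeing the data, values under the limit set to it.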

Additional observations from a re-analysis of the deposited data

Results flagged for a closer look

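In 4 of 39 groups of the member probe sets, 1 array stood apart from the rest of its group, where chance gives about 1 in 20. Pla2g4a was 10.10 in ligated saline rat 1, with the next value at 9.82. Ptgis was 5.46 in ligated ghrelin rat 4, below the next value of 6.52. One Ptges probe set was 2.46 in ligated ghrelin rat 2 and 2.61 in ligated saline rat 2, both under the limit of 3.95.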

How the results depend on the processing

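Across the alternatives, 162 of 167 values of the members for ligated saline against sham rats kept their direction and side of the threshold, and the other 5 brought Hpgd past it (array weights, its second probe set, and 3 of the single arrays left out). For ligated ghrelin against ligated saline rats 149 of 159 did, and for ligated ghrelin against sham rats 147 of 159, where the other 12 are the Ptgs2 call. The Ptgs2 call was lost without a filter (adjusted p = 0.0695), with the 2 groups fitted alone (0.0880) and without each of 7 arrays, and a stricter filter left the gene out. Members called lower were thus 0 without a filter, with the stricter filter and with the 2 groups alone, and 0 to 1 with single arrays left out. Ltc4s, with all ligated values under the limit, lay between -0.034 (without ligated ghrelin rat 3) and 0.096 when single arrays were left out. Without a filter, members called lower were 3 in both comparisons with sham, since Ptges and Alox5 then counted although under the limit. Probe sets called numbered 22230 for ligation without a filter, against 9825, and 19914, against 8534, for ligated ghrelin against sham rats. For ghrelin after ligation they were 355, and 542 after quantile normalization, 611 with array medians set equal, 154 without a filter, 118 with the 2 groups alone and 35 to 653 with single arrays left out, where every array of both groups except ligated saline rat 2 moved the count by over 1.5 times. Setting array medians equal gave a median change over all kept probe sets of -0.15 for ligation, against 0.04, and the calls of Pla2g4a, Ptgs1, Ptgs2, Ptgds, Alox5ap and Ltc4s for ligation kept their direction there. The call of Alox15 for ligated ghrelin against sham rats was lost in 6 alternatives. No paired analysis was possible because the labels share no replicate numbers between groups.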

Other observations

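In ligated ghrelin against sham rats, 15 of the 29 kept genes of the wider pathway were higher and 7 lower by limma. Of all tested genes, 35% were higher and 21.2% lower. The counts are not read as an excess, because Ggt1, Ptgfr and Alox15 were kept mostly through the groups where they were higher. Anxa1 was higher by 3.54 ± 0.376 and Lta4h by 1.32 ± 0.0978. Ggt1 had a fitted change of 4.12 ± 0.401, and 3.27 with values under the limit set to it, since 5 of its 6 sham arrays were under the limit. The phospholipase Plaat3 and the prostaglandin reductase Ptgr1, named here after their values were seen, were called in this comparison, at 0.49 ± 0.154 (limma adjusted p = 0.0138) and 0.36 ± 0.138 (limma adjusted p = 0.0355). Neither was called in ligated saline against sham rats, and the difference between ligated ghrelin and ligated saline rats was not called for Plaat3 (limma adjusted p = 0.455) or Ptgr1 (limma adjusted p = 0.101).

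Of the 20 genes of the wider list that were not kept, 6 were phospholipases, 5 prostanoid receptors and 4 leukotriene receptors. All 20 were below 3.95 on all 17 arrays.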
